A study of Mus musculus with 9 samples.

Results

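The heat shock and DNAJ chaperones were the 74 protein-coding genes of the deposited table whose symbol starts with Hsp or Dnaj, leaving out Hspg2, which encodes the basement membrane proteoglycan perlecan. The table lists 54532 genes, of which 22046 are protein-coding. The 74 genes comprise 29 with an Hsp symbol and 45 with a Dnaj symbol. They were chosen by name and sorted into compartments from general knowledge of where their proteins act. Both choices were made with earlier results of these data known. A gene was tested where it had at least 1 FPKM (fragments per kilobase of gene per 1000000 mapped fragments) in at least 3 of the 9 libraries. That left 65 chaperone genes, of which 64 had at least 1 FPKM in all 9 libraries, and 0 passed through 1 group alone.

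All animals were C57BL/6 mice, and poly-A RNA came from choroidal-retinal flat mounts. BetP-Gel@Ran mice (n = 3 libraries) were sampled 3 months after an intravitreal injection; the group's name carries Ran and the series names ranibizumab, an antibody fragment against VEGF-A, but the treatment label gives the gel alone, and no label says whether these eyes also had the disease model. CNV mice (n = 3 libraries) are titled as wet AMD, the neovascular form of age-related macular degeneration, with no word on how the model was made. Untreated mice (n = 3 libraries) received nothing that the labels name. Age and sex are not given, nor is a sampling time for CNV and untreated mice, so time after injection and treatment cannot be told apart in comparisons with BetP-Gel@Ran. Whether each library is its own animal is not stated, so the p-values rest on a spread between libraries that may be technical.

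Heat shock proteins of the HSP70 class bind exposed hydrophobic stretches of unfolded proteins in a cycle driven by ATP. J-domain (DNAJ) proteins deliver the clients and trigger ATP hydrolysis, nucleotide exchange factors reset the cycle, HSP90 acts on later folding states, and small heat shock proteins hold unfolding proteins until they can be refolded. The cytosol, the endoplasmic reticulum (ER) and the mitochondrion each have their own set. Heat shock factor 1 induces the cytosolic set through heat shock elements, inverted repeats of the unit GAA, whereas the unfolded protein response induces the ER set, through ER stress elements bound by ATF6 with NF-Y. Photoreceptors fold and traffic large amounts of opsin, and chaperones are studied in the retina for that reason.

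The libraries held 16990118 to 18753737 reads, and limma was fitted to log2(FPKM + 1) of all 14086 genes that passed the filter, so each fold change is on that scale. Libraries held RNA of more than retina and choroid. Rod markers were present in all 9 libraries, at a summed 1605 to 2168 FPKM in BetP-Gel@Ran, 1200.1 to 1443 FPKM in CNV and 3049.9 to 4376 FPKM in untreated libraries. Cornea and surface epithelium markers summed to 12734 to 15523 FPKM in BetP-Gel@Ran, 9241 to 10212 FPKM in CNV and 17812 to 20628 FPKM in untreated libraries. Skeletal muscle markers summed to 955 to 1162 FPKM in BetP-Gel@Ran, 693 to 1179 FPKM in CNV and 4543 to 4939 FPKM in untreated libraries, with Tnnc2 alone of the 15 listed at 0 in every library. Lens markers summed to 1405 to 5220.3 FPKM in BetP-Gel@Ran, 22.7 to 135 FPKM in CNV and 412 to 15903 FPKM in untreated libraries, and untreated replicate 3 alone accounted for the highest value. Macrophage and neutrophil markers summed to 701 to 1002 FPKM in BetP-Gel@Ran, 1621 to 2676 FPKM in CNV and 322 to 359 FPKM in untreated libraries. Smooth muscle and pericyte markers summed to 96.8 to 123 FPKM in BetP-Gel@Ran, 126 to 172 FPKM in CNV and 167 to 206 FPKM in untreated libraries, and immediate early genes to 216 to 263 FPKM in BetP-Gel@Ran, 262 to 358 FPKM in CNV and 203 to 235 FPKM in untreated libraries. In bulk tissue, fewer cells of a type and less RNA per cell cannot be told apart.

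The summed chaperone transcripts were lower in CNV than in untreated libraries, and Hspb1 made up most of that difference. Summed over the 74 genes, they made up 2320.4, 2339.5 and 2234 FPKM in BetP-Gel@Ran, 2034, 2115 and 2046 FPKM in CNV and 2864, 2668 and 2923 FPKM in untreated libraries. CNV libraries lay lowest and untreated libraries highest, and no 2 groups overlapped. Without Hspb1 the sum was 1702, 1730.4 and 1702 FPKM in BetP-Gel@Ran, 1813, 1818 and 1680.0 FPKM in CNV and 1998, 1987 and 2059 FPKM in untreated libraries, with untreated libraries still above the others and BetP-Gel@Ran and CNV libraries overlapping. All sums are on the deposited scaling. They were not recomputed with reads divided by library totals, so whether the groups stay apart under that scaling was not checked. The summed ER and mitochondrial sets, given below, were higher in CNV than in untreated libraries. Hspa5 and Hsp90b1 made up most of the ER rise, and the mitochondrial rise rested on Hspe1 and Hspd1. In CNV against untreated, 10 of the 65 tested chaperone genes were higher and 24 lower at a limma adjusted p under 0.05, which is 15.4% and 36.9%. Of all 14086 genes, 22.5% were higher and 22.1% lower. The median log2 fold change was -0.15 over the chaperone genes and 0.01 over all genes. With reads divided by library totals, the split was 14 higher and 20 lower, with 62.5% of all called genes higher in place of 50.4%, and with FPKM divided by its sum it was 11 higher and 20 lower, with 60.0%. Without CNV replicate 1, 6 chaperone genes were higher, and 2483 of all genes in place of 3166.

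Between BetP-Gel@Ran and CNV, 3 chaperone genes were higher and 3 lower, or 4.62% each, against 5.81% higher and 8.27% lower among all genes. These shares are near the background. The higher genes were Hspb1, Dnajc27 and Dnajc8, and the lower ones were Hspa5, Hspe1 and Dnajb11. The counts rested on single libraries. They were 1 higher and 0 lower without CNV replicate 1, CNV replicate 2, BetP-Gel@Ran replicate 2 or BetP-Gel@Ran replicate 3, and 5 higher and 11 lower without CNV replicate 3. Without BetP-Gel@Ran replicate 1 they were 2 and 2, and without untreated replicate 1, 2 or 3 they were 3 and 2, 4 and 2, or 4 and 3. The calls over all genes also moved with the library left out, from 818 higher and 1165 lower in the main fit. They were 70 and 183 without CNV replicate 1, 92 and 250 without CNV replicate 2, and 1439 and 1650 without CNV replicate 3. Without BetP-Gel@Ran replicate 1, 2 or 3 they were 363 and 847, 147 and 322, or 178 and 469. Without untreated replicate 1, 2 or 3 they were 629 and 914, 652 and 906, or 904 and 1100. Hspb1 kept its call under all 19 alternatives.

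When BetP-Gel@Ran was set against untreated, 6 chaperone genes were higher and 22 lower, or 9.23% and 33.8%, against 16.1% and 18.1% of all genes. The median log2 fold change was -0.14, and -0.01 over all genes. With reads scaled to each library's total it was 9 higher and 12 lower, with 58.9% of all called genes higher in place of 47.1%, and with FPKM divided by its sum 7 and 10, with 63.2%. Without untreated replicate 1, 2 or 3 the counts were 3 and 11, 6 and 12, or 4 and 17, and without BetP-Gel@Ran replicate 1, 2 or 3 they were 4 and 14, 3 and 12, or 3 and 12. Over all genes, 2265 were higher and 2548 lower with all libraries. Without untreated replicate 1, 2 or 3 these were 1701 and 1739, 1729 and 1899, or 1865 and 2222. Without BetP-Gel@Ran replicate 1, 2 or 3 they were 1840 and 2240, 1782 and 1972, or 1435 and 1766. BetP-Gel@Ran libraries stand in both comparisons of that group, and CNV and untreated libraries are likewise shared.

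**Figure D1:**
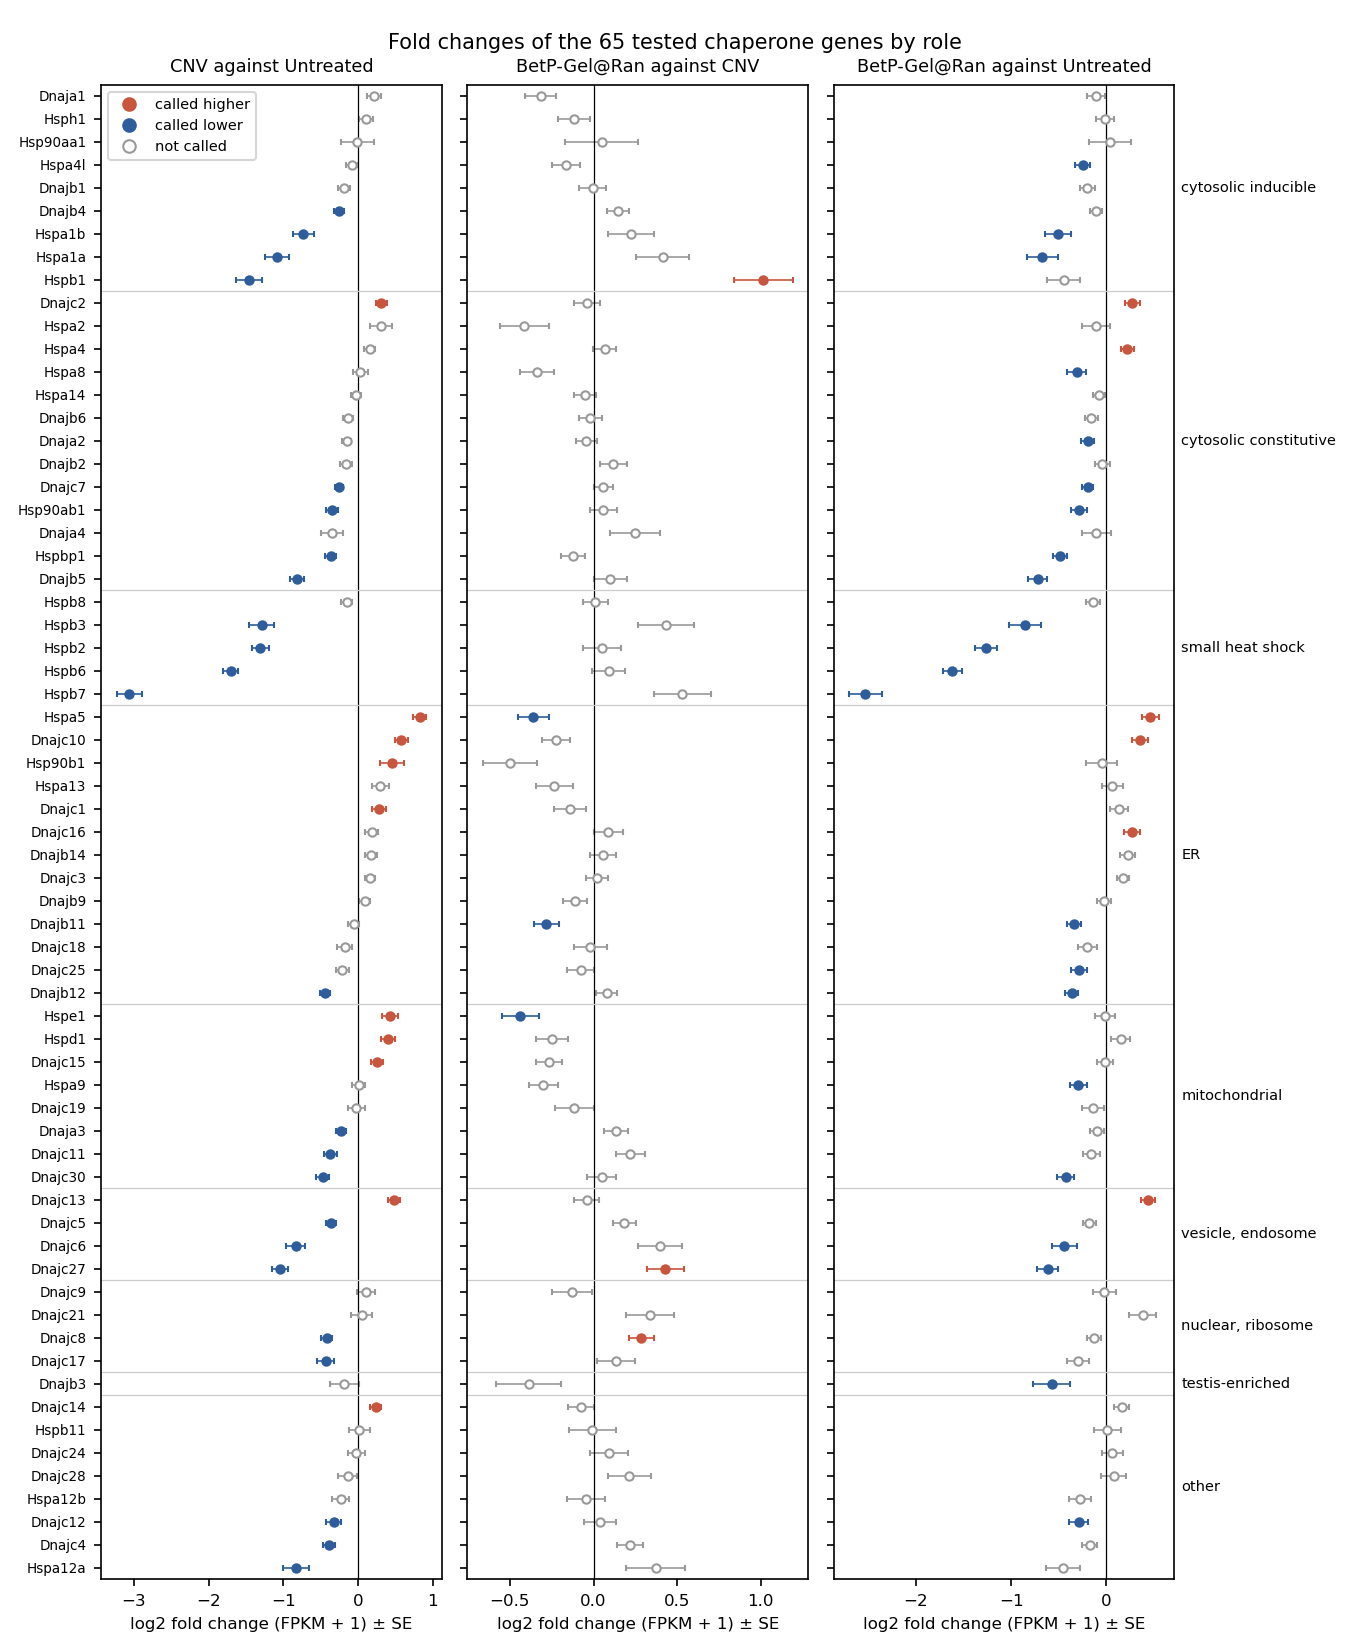
Log2 fold change of FPKM + 1 (x axis, ± SE, 3 libraries a group) for each of the 65 tested chaperone genes (rows, grouped by role) in CNV against untreated, BetP-Gel@Ran against CNV and BetP-Gel@Ran against untreated; the 3 panels have different x ranges. Filled points passed a limma adjusted p of 0.05, 10 higher and 24 lower in the left panel, 3 and 3 in the middle and 6 and 22 on the right, and Hspb7 has the lowest value on the left and right.

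Of the 9 cytosolic inducible genes, 4 (44.4%) were lower and 0 higher in CNV against untreated (median log2 fold change -0.19), beside 22.1% lower and 22.5% higher among all genes. Hspb1, Hspa1a, Hspa1b and Dnajb4 fell. Summed over the 9 genes, FPKM was 984, 1004 and 923 FPKM in BetP-Gel@Ran, 595, 650.2 and 727 FPKM in CNV and 1274, 1095 and 1368 FPKM in untreated libraries. Hspb1 supplied most of the difference between the groups' means, since the other 8 genes summed to 366, 395 and 391 FPKM in BetP-Gel@Ran, 373, 353 and 361 FPKM in CNV and 408, 414 and 504 FPKM in untreated libraries.

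Hspb1 encodes HSP27, a small heat shock protein that binds unfolding clients and actin and is abundant in epithelia (chromosome 5, 135887919 to 135889563, plus strand, mm10). It had 618, 609 and 533 FPKM in BetP-Gel@Ran libraries, 222, 297 and 366 FPKM in CNV libraries and 866, 680.4 and 864 FPKM in untreated libraries. The 3 groups did not overlap: BetP-Gel@Ran libraries lay between CNV libraries below and untreated libraries above. Hspb1 fell in CNV against untreated (log2 fold change -1.46 ± 0.18 (SE), limma adjusted p = 0.000217). It was higher in BetP-Gel@Ran than in CNV (log2 fold change 1.02 ± 0.18 (SE), limma adjusted p = 0.0109). The difference between BetP-Gel@Ran and untreated did not pass the threshold (log2 fold change -0.45 ± 0.18 (SE), limma adjusted p = 0.0773). The cornea and surface epithelium list, given above, had the same order of groups. Of its 10 genes, 3 were lower, 1 higher and 6 not called in CNV against untreated (median log2 fold change -0.13), and 3 were higher and 1 lower in BetP-Gel@Ran against CNV. Its abundant members Krt12, a cornea-specific keratin, and Krt5, a basal epithelial keratin, had the order of Hspb1. Krt12 averaged 3516 ± 44.5 FPKM in BetP-Gel@Ran, 1673 ± 496 FPKM in CNV and 4677 ± 552 FPKM in untreated libraries (SD, n = 3 each), and Krt5 averaged 4396 ± 705 FPKM in BetP-Gel@Ran, 3087 ± 218 FPKM in CNV and 5839 ± 462 FPKM in untreated libraries. Another basal keratin of the list, Krt14, went the other way, with 276 ± 89.7 FPKM in BetP-Gel@Ran, 1558 ± 891 FPKM in CNV and 295 ± 18.7 FPKM in untreated libraries. The part of these cells in the Hspb1 difference was not tested.

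Hspa1a and Hspa1b encode the stress-inducible HSP70 and lie side by side on chromosome 17. Hspa1b had 95.5, 72.7 and 88.1 FPKM in BetP-Gel@Ran libraries, 63.9, 81.9 and 73.2 FPKM in CNV libraries and 131, 130.1 and 104 FPKM in untreated libraries. Hspa1a had 23.9, 16.7 and 17.1 FPKM in BetP-Gel@Ran libraries, 12.8, 14.7 and 14.7 FPKM in CNV libraries and 37.2, 31.1 and 25.3 FPKM in untreated libraries. For both genes every CNV library lay below every untreated library, and every BetP-Gel@Ran library did too. In CNV against untreated, Hspa1a fell (log2 fold change -1.08 ± 0.16 (SE), limma adjusted p = 0.000655) and so did Hspa1b (log2 fold change -0.73 ± 0.14 (SE), limma adjusted p = 0.0023). BetP-Gel@Ran against untreated gave lower values too: Hspa1a fell (log2 fold change -0.67 ± 0.16 (SE), limma adjusted p = 0.0115) and Hspa1b fell (log2 fold change -0.51 ± 0.14 (SE), limma adjusted p = 0.0188). The Hspa1b call in the last comparison was lost without BetP-Gel@Ran replicate 2 or untreated replicate 1 or 2, and with quantile normalization or with FPKM divided by its sum (limma adjusted p = 0.0512 to 0.0696). Their longest open reading frames, of 1926 bases in Hspa1a and 1929 in Hspa1b, were 99.4% identical over 1929 aligned columns, so how reads were divided between them is uncertain. With the pair summed, the log2 fold change was -0.81 in CNV against untreated (limma adjusted p = 0.00151), 0.26 in BetP-Gel@Ran against CNV (0.23) and -0.54 in BetP-Gel@Ran against untreated (0.0154).

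The promoters of Hspb1, Hspa1a and Hspa1b are shown because these genes are classical targets of heat shock factor 1 and were called lower in CNV. Sequences are RefSeq's, build GRCm38.p6, read along the gene, and capitals mark 2-unit heat shock elements (GAANNTTC, which reads the same on both strands).
Hspb1, chr5:135887777-135887854, plus strand: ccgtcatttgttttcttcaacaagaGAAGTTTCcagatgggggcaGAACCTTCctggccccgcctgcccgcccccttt
Hspa1a, chr17:34972228-34972285, minus strand: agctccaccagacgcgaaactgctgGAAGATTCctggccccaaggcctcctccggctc
Hspa1b, chr17:34959310-34959367, minus strand: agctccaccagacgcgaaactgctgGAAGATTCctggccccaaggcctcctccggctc
The stretches of Hspa1a and Hspa1b are the same, and their whole windows of 300 bases, from 250 before to 50 after the start site, matched at 296 of 300 positions. Windows were found for 60 of the 74 genes. The other 14, among them Hsp90aa1, Hsp90ab1, Hspa8 and Hspa9, had no window and were not searched. GAANNTTC stood in a window of 14 of the 60 (23.3%), against 9.04% of 27025 genes. The 2-unit form TTCNNGAA stood in 6 (10%), against 9.60%. The 3-unit element, GAA, TTC and GAA with 2 bases between neighbours, on either strand, stood in 4 (6.67%), Dnajb6, Hspd1, Hspe1 and Hsph1, against 0.662%. Each 3-unit match also holds both 2-unit forms. Inducible genes with a match did not all fall in CNV against untreated. Dnaja1, with GAANNTTC, and Hsph1, with the 3-unit element, were not called. Dnajb4, called lower, held only TTCNNGAA. A match is a run of letters and does not show binding.

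Dnajb4, a J-domain partner of HSP70, had 5.15, 5.46 and 5.17 FPKM in BetP-Gel@Ran libraries, 4.54, 4.77 and 4.67 FPKM in CNV libraries and 5.98, 5.88 and 5.40 FPKM in untreated libraries. Every CNV library lay below every untreated library, and the gene fell in CNV (log2 fold change -0.25 ± 0.07 (SE), limma adjusted p = 0.0119). That call was lost with FPKM divided by its sum or with reads scaled to each library's total (limma adjusted p = 0.0849 to 0.119). Hspa4l, an HSP110-type exchange factor, had 4.53, 4.66 and 4.49 FPKM in BetP-Gel@Ran libraries, 5.54, 5.44 and 4.76 FPKM in CNV libraries and 5.65, 6.12 and 5.09 FPKM in untreated libraries. It fell in BetP-Gel@Ran against untreated (log2 fold change -0.25 ± 0.08 (SE), limma adjusted p = 0.0421), a call lost without BetP-Gel@Ran replicate 1, 2 or 3, CNV replicate 2 or untreated replicate 1 or 2, and with no filter, with FPKM divided by its sum or with reads scaled to each library's total (limma adjusted p = 0.052 to 0.263).

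The remaining inducible genes did not pass in any comparison with limma on FPKM, while limma voom on recovered reads called Dnaja1 lower in BetP-Gel@Ran against CNV (limma voom adjusted p = 0.0327). Hsp90aa1, the inducible cytosolic HSP90, had 179, 241 and 219.6 FPKM in BetP-Gel@Ran libraries, 227, 182 and 207 FPKM in CNV libraries and 162, 178 and 303 FPKM in untreated libraries. Untreated replicate 3 lay above all the other libraries, and the groups overlapped. In that library the lens markers summed to 15903 FPKM, against 511 and 412 FPKM in the other two untreated libraries. Without it, the log2 fold change of Hsp90aa1 in CNV against untreated was 0.26, against -0.01 with it. Dnajb1, the main J-domain partner of inducible HSP70, had 40.8, 36.8 and 39.4 FPKM in BetP-Gel@Ran libraries, 37.2, 42.6 and 37.7 FPKM in CNV libraries and 47.9, 43.1 and 43.6 FPKM in untreated libraries. Its CNV libraries lay just below its untreated libraries (log2 fold change -0.19 ± 0.08 (SE), limma adjusted p = 0.081). Dnaja1 had 12.9, 12.1 and 11.7 FPKM in BetP-Gel@Ran libraries, 16.2, 16.6 and 13.8 FPKM in CNV libraries and 12.5, 14.8 and 12.6 FPKM in untreated libraries (log2 fold change -0.32 ± 0.09 (SE), limma adjusted p = 0.0507 in BetP-Gel@Ran against CNV). Hsph1, an HSP110 exchange factor, ranged from 4.26 to 5.76 FPKM over the 9 libraries with all groups overlapping.

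**Figure D2:**
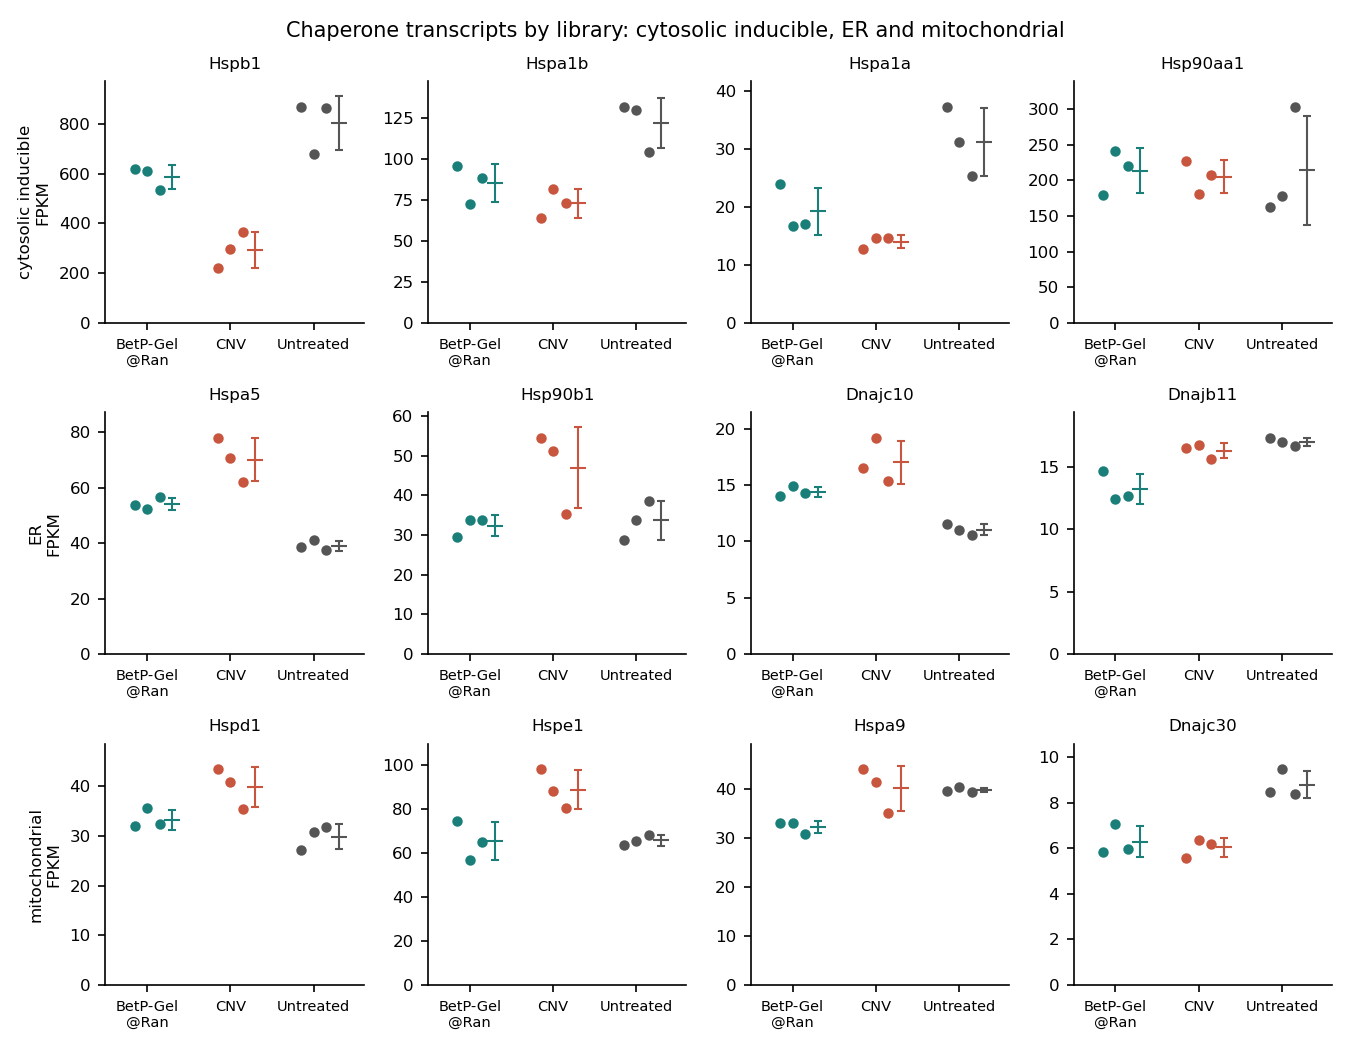
FPKM per library (y axis, from 0) of 4 cytosolic inducible, 4 ER and 4 mitochondrial chaperone genes in BetP-Gel@Ran, CNV and untreated libraries; points are libraries and bars are the mean ± SD of 3. By mean, Hspb1, Hspa1b and Hspa1a lie lowest in CNV and Hspa5, Dnajc10, Hspd1 and Hspe1 highest. CNV and BetP-Gel@Ran libraries overlap for Hspd1, and all groups overlap for Hsp90aa1.

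More ER genes were higher than lower in CNV. Of the 13 tested, 4 (30.8%) were called higher and 1 (7.69%) lower when CNV was set against untreated (median log2 fold change 0.17), beside 22.5% and 22.1% of all genes, so the higher share is near the background. The calls of Hsp90b1 and Dnajc1, among these 4, were lost under several alternatives, given with their values, and limma voom called 6 higher and 1 lower. Relative to CNV, BetP-Gel@Ran had 0 higher and 2 (15.4%) lower (median -0.11), beside 5.81% and 8.27% of all genes. In BetP-Gel@Ran against untreated 3 were higher and 3 lower, or 23.1% each (median 0.06), beside 16.1% and 18.1% of all genes. Summed FPKM was 170.4, 175 and 176 FPKM in BetP-Gel@Ran, 225, 221 and 188 FPKM in CNV and 155, 166 and 164 FPKM in untreated libraries. Hspa5 and Hsp90b1 made up most of the rise in CNV. They averaged 70.2 and 46.9 FPKM in CNV and 39.1 and 33.7 FPKM in untreated libraries. The whole set averaged 211 FPKM in CNV and 162 FPKM in untreated libraries.

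Hspa5 encodes BiP, the HSP70 of the ER, which also keeps the sensors of the unfolded protein response inactive (chromosome 2, 34771970 to 34777547, plus strand, mm10). It had 53.9, 52.3 and 56.6 FPKM in BetP-Gel@Ran libraries, 77.8, 70.8 and 62.04 FPKM in CNV libraries and 38.6, 41.1 and 37.6 FPKM in untreated libraries. The groups did not overlap, with CNV highest, BetP-Gel@Ran between and untreated lowest. Hspa5 rose in CNV against untreated (log2 fold change 0.82 ± 0.09 (SE), limma adjusted p = 0.000132) and in BetP-Gel@Ran against untreated (log2 fold change 0.46 ± 0.09 (SE), limma adjusted p = 0.00468). It was lower in BetP-Gel@Ran than in CNV (log2 fold change -0.36 ± 0.09 (SE), limma adjusted p = 0.0323), a call that was lost without BetP-Gel@Ran replicate 1, 2 or 3 or CNV replicate 1 or 2, and with no filter, with quantile normalization, with FPKM divided by its sum, with only the 2 groups in the fit or with the replicate number as a block (limma adjusted p = 0.0549 to 0.11). Macrophage and neutrophil markers had the same order of groups, and all 12 tested were higher in CNV against untreated. Their part in the Hspa5 difference was not tested.

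Dnajc10, an ER J-domain protein with disulfide reductase activity, had 14.03, 14.9 and 14.3 FPKM in BetP-Gel@Ran libraries, 16.5, 19.2 and 15.4 FPKM in CNV libraries and 11.5, 10.99 and 10.6 FPKM in untreated libraries. Its CNV libraries were the highest and its untreated libraries the lowest, with no overlap. It rose in CNV against untreated (log2 fold change 0.58 ± 0.08 (SE), limma adjusted p = 0.000588) and in BetP-Gel@Ran against untreated (log2 fold change 0.36 ± 0.08 (SE), limma adjusted p = 0.0109). Hsp90b1 encodes GRP94, the HSP90 of the ER, and had 29.5, 33.8 and 33.9 FPKM in BetP-Gel@Ran libraries, 54.3, 51.1 and 35.3 FPKM in CNV libraries and 28.8, 33.7 and 38.5 FPKM in untreated libraries. CNV replicates 1 and 2 stood above all other libraries, but CNV replicate 3 lay within the untreated range. Its rise in CNV was close to the threshold (log2 fold change 0.45 ± 0.16 (SE), limma adjusted p = 0.0465) and was lost without BetP-Gel@Ran replicate 1, 2 or 3, CNV replicate 1 or 2 or untreated replicate 1 or 2, and with no filter, with only the 2 groups in the fit, with neither the trend nor the robust option or with the replicate number as a block (limma adjusted p = 0.0511 to 0.155). Dnajc1, a J-domain protein of the ER membrane, had 1.44, 1.42 and 1.83 FPKM in BetP-Gel@Ran libraries, 1.71, 2.03 and 1.74 FPKM in CNV libraries and 1.47, 1.22 and 1.30 FPKM in untreated libraries. It rose in CNV (log2 fold change 0.28 ± 0.10 (SE), limma adjusted p = 0.0416), and the call was lost without BetP-Gel@Ran replicate 1 or 2, CNV replicate 1, 2 or 3 or untreated replicate 1, 2 or 3, and with no filter, with quantile normalization, with only the 2 groups in the fit or with the replicate number as a block (limma adjusted p = 0.051 to 0.133).

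Not every ER gene moved this way. Dnajb12, a J-domain protein of the ER membrane that acts with cytosolic HSC70, had 9.77, 10.2 and 10.3 FPKM in BetP-Gel@Ran libraries, 9.03, 10.03 and 9.50 FPKM in CNV libraries and 13.2, 13.2 and 13.5 FPKM in untreated libraries. Untreated libraries lay above all the others. It fell in CNV against untreated (log2 fold change -0.44 ± 0.06 (SE), limma adjusted p = 0.000538) and in BetP-Gel@Ran against untreated (log2 fold change -0.37 ± 0.06 (SE), limma adjusted p = 0.00277). Dnajb11 encodes ERdj3, a soluble BiP partner that binds clients, and had 14.6, 12.4 and 12.7 FPKM in BetP-Gel@Ran libraries, 16.5, 16.7 and 15.6 FPKM in CNV libraries and 17.3, 17.00 and 16.7 FPKM in untreated libraries. BetP-Gel@Ran libraries lay below all CNV and untreated libraries, whose ranges overlapped. It was lower in BetP-Gel@Ran than in CNV (log2 fold change -0.28 ± 0.07 (SE), limma adjusted p = 0.0367) and than in untreated (log2 fold change -0.34 ± 0.07 (SE), limma adjusted p = 0.00765). The first call was lost without BetP-Gel@Ran replicate 2 or 3, CNV replicate 1 or 2 or untreated replicate 1 or 2, and with no filter, with FPKM divided by its sum, with only the 2 groups in the fit or with the replicate number as a block (limma adjusted p = 0.0527 to 0.122), and the second with FPKM divided by its sum (limma adjusted p = 0.0605).

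Lower in level, Dnajc16 rose in BetP-Gel@Ran against untreated (log2 fold change 0.27 ± 0.08 (SE), limma adjusted p = 0.0344), with 3.49, 3.28 and 3.20 FPKM in BetP-Gel@Ran libraries, 3.09, 3.14 and 2.97 FPKM in CNV libraries and 2.50, 2.99 and 2.30 FPKM in untreated libraries. Dnajc25 fell in the same comparison (log2 fold change -0.29 ± 0.08 (SE), limma adjusted p = 0.0238), with 1.70, 2.07 and 1.70 FPKM in BetP-Gel@Ran libraries, 2.12, 1.92 and 1.88 FPKM in CNV libraries and 2.41, 2.47 and 2.43 FPKM in untreated libraries. The Dnajc16 call was lost without BetP-Gel@Ran replicate 1, 2 or 3 or untreated replicate 1 or 3, and with no filter or with only the 2 groups in the fit (limma adjusted p = 0.057 to 0.0979). The Dnajc25 call was lost without BetP-Gel@Ran replicate 1 or 3 or untreated replicate 1, 2 or 3, and with FPKM divided by its sum or with reads scaled to each library's total (limma adjusted p = 0.0501 to 0.121). Dnajb9, Dnajb14, Dnajc3, Dnajc18 and Hspa13 did not pass in any comparison with limma on FPKM. Limma voom called Hspa13 and Dnajb14 higher in CNV against untreated (limma voom adjusted p = 0.0325 and 0.0335) and Dnajb14 higher in BetP-Gel@Ran against untreated (0.0115). Single libraries of these 5 genes ranged from 1.30 FPKM, for Dnajb14 in untreated replicate 3, to 18.6 FPKM, for Dnajb9 in CNV replicate 2.

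ER stress elements are shown for the genes whose windows hold them, because ER chaperones are the classical targets of the unfolded protein response. Capitals mark the element CCAAT and CCACG with 9 bases between them, on either strand, and in Dnajb11 the second form, ATTGG and CCACG with 1 base between them.
Hspa5, chr2:34772020-34772048, plus strand: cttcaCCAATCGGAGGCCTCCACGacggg
Hsp90b1, chr10:86705508-86705681, minus strand: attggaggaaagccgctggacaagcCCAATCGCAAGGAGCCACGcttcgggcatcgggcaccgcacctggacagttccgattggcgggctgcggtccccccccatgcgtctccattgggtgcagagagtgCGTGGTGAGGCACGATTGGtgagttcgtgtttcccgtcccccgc
Dnajc3, chr14:118937802-118937870, plus strand: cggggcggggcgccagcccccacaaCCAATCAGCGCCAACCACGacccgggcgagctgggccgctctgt
Dnajb11, chr16:22857843-22857871, plus strand: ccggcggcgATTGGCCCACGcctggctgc
The form with CCAAT stood in 3 of the 60 genes with a window (5.0%), against 0.137% of 27025 genes. The Hsp90b1 stretch holds 2 matches on opposite strands. The form with ATTGG stood in 1 gene (1.67%), against 0.0444%. The stretches of Hspa5 and Dnajb11 lie within or partly within the annotated 5′ UTR of those genes in GENCODE M21, whose start sites differ from RefSeq's for Hspa5. Dnajc3 encodes P58IPK, a BiP partner that also binds the kinase PERK, and had 17.7, 17.3 and 17.6 FPKM in BetP-Gel@Ran libraries, 16.7, 17.9 and 17.2 FPKM in CNV libraries and 14.7, 16.6 and 15.1 FPKM in untreated libraries. It did not pass in CNV against untreated (log2 fold change 0.15 ± 0.07 (SE), limma adjusted p = 0.0895). In CNV against untreated, the genes with a match were Hspa5 and Hsp90b1, which rose, and Dnajc3 and Dnajb11, which did not pass.

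**Figure D3:**
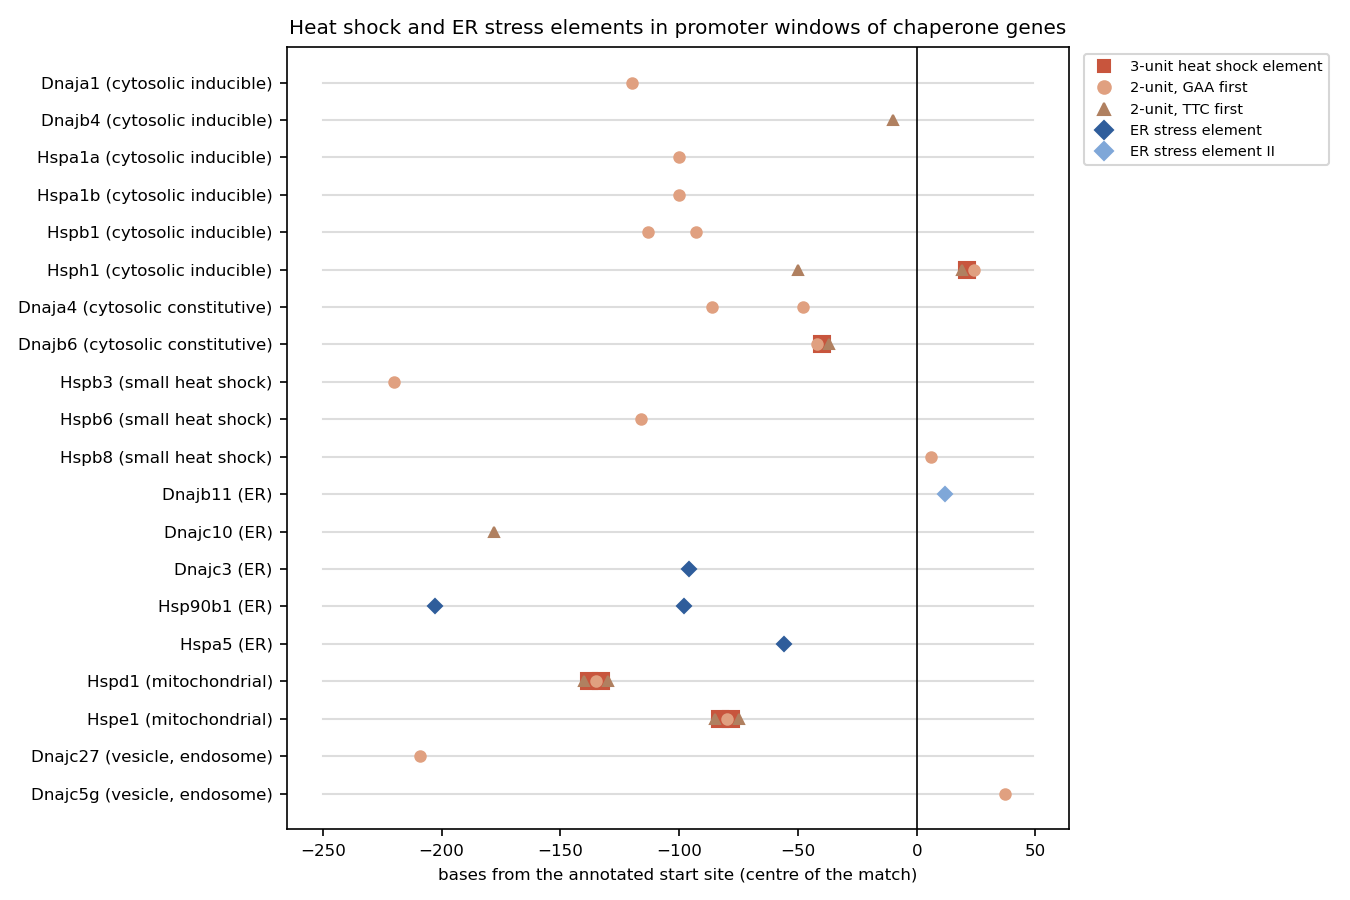
Centre of each motif match (x axis, bases from the RefSeq start site, negative before it) in the promoter window of the chaperone genes that hold one, 1 window a gene, that with the lowest coordinate. The 3-unit heat shock element lies in 4 genes and the ER stress element in Hspa5, Hsp90b1 and Dnajc3.

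Mitochondrial chaperones divided evenly. Of 8 genes, 3 were higher and 3 lower in CNV against untreated, or 37.5% each, beside 22.5% and 22.1% of all genes (median log2 fold change -0.01). Relative to CNV, BetP-Gel@Ran had 0 higher and 1 (12.5%) lower with limma on FPKM, beside 5.81% and 8.27% of all genes. Limma voom called 3 lower, adding Hspa9 and Dnajc15. In BetP-Gel@Ran against untreated 0 were higher and 2 (25%) lower, beside 16.1% and 18.1% of all genes. Summed FPKM was 176, 164 and 166 FPKM in BetP-Gel@Ran, 224, 209 and 188 FPKM in CNV and 172, 179.8 and 184 FPKM in untreated libraries. The rise of the sum in CNV rested on Hspe1 and Hspd1. They averaged 88.8 and 39.8 FPKM in CNV and 65.7 and 29.9 FPKM in untreated libraries. The whole set averaged 207 FPKM in CNV and 178 FPKM in untreated libraries.

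Hspd1 and Hspe1 encode HSP60 and its lid HSP10, which together form the matrix folding chamber. The genes lie head to head on chromosome 1, and their annotated first exons overlap, so reads there cannot be assigned to a strand with this kit. Hspd1 had 31.9, 35.5 and 32.3 FPKM in BetP-Gel@Ran libraries, 43.4, 40.8 and 35.3 FPKM in CNV libraries and 27.1, 30.8 and 31.7 FPKM in untreated libraries. Hspe1 had 74.6, 56.9 and 64.98 FPKM in BetP-Gel@Ran libraries, 98.1, 88.03 and 80.4 FPKM in CNV libraries and 63.6, 65.4 and 68.2 FPKM in untreated libraries. For both, every CNV library lay above every untreated library. Hspd1 rose in CNV against untreated (log2 fold change 0.40 ± 0.10 (SE), limma adjusted p = 0.0081), and so did Hspe1 (log2 fold change 0.42 ± 0.11 (SE), limma adjusted p = 0.0116). Hspe1 was lower in BetP-Gel@Ran than in CNV (log2 fold change -0.44 ± 0.11 (SE), limma adjusted p = 0.0322), and that call was lost without BetP-Gel@Ran replicate 2 or 3 or CNV replicate 1 or 2, and with no filter or with only the 2 groups in the fit (limma adjusted p = 0.0695 to 0.115). For Hspd1 the same comparison did not pass (log2 fold change -0.25 ± 0.10 (SE), limma adjusted p = 0.108). The stretch below, between the RefSeq start sites of the genes, is shown because its capitals hold 2 overlapping 3-unit heat shock elements, 1 on each strand, in the windows of both genes. It lies in an annotated 5′ UTR of an Hspd1 transcript in GENCODE M21.
Hspe1, chr1:55088053-55088082, plus strand: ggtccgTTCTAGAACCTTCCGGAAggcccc
Hspd1, chr1:55088053-55088082, minus strand: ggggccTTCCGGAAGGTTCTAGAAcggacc

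Other mitochondrial members differed in direction. Dnajc30, a small J-domain protein of mitochondria, had 5.84, 7.07 and 5.95 FPKM in BetP-Gel@Ran libraries, 5.56, 6.35 and 6.20 FPKM in CNV libraries and 8.48, 9.46 and 8.39 FPKM in untreated libraries. Untreated libraries lay above all the others, and it fell in CNV (log2 fold change -0.47 ± 0.09 (SE), limma adjusted p = 0.00228) and in BetP-Gel@Ran against untreated (log2 fold change -0.43 ± 0.09 (SE), limma adjusted p = 0.00619). Dnajc11, linked to cristae organisation, had 4.46, 4.07 and 3.51 FPKM in BetP-Gel@Ran libraries, 3.38, 3.24 and 3.24 FPKM in CNV libraries and 4.97, 4.32 and 4.43 FPKM in untreated libraries and fell in CNV (log2 fold change -0.38 ± 0.09 (SE), limma adjusted p = 0.00665). Dnaja3, the matrix J-domain partner known as TID1, fell in CNV (log2 fold change -0.23 ± 0.07 (SE), limma adjusted p = 0.027), and that call was lost without CNV replicate 1, 2 or 3 or untreated replicate 1 or 2, and with quantile normalization, with FPKM divided by its sum, with only the 2 groups in the fit or with reads scaled to each library's total (limma adjusted p = 0.055 to 0.228). Dnajc15, of the inner membrane import motor, rose in CNV (log2 fold change 0.25 ± 0.08 (SE), limma adjusted p = 0.0286), and that call was lost without CNV replicate 1 or 2 or untreated replicate 1, and with no filter (limma adjusted p = 0.0516 to 0.102). Hspa9 encodes mortalin, the mitochondrial HSP70, and had 33.03, 33.01 and 30.8 FPKM in BetP-Gel@Ran libraries, 44.04, 41.4 and 35.03 FPKM in CNV libraries and 39.7, 40.3 and 39.5 FPKM in untreated libraries. It fell in BetP-Gel@Ran against untreated (log2 fold change -0.30 ± 0.09 (SE), limma adjusted p = 0.0281), a call lost without BetP-Gel@Ran replicate 1, 2 or 3 or untreated replicate 1, 2 or 3, and with no filter, with quantile normalization, with FPKM divided by its sum or with reads scaled to each library's total (limma adjusted p = 0.0513 to 0.171).

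Small heat shock genes other than Hspb1 showed the steepest falls. Of the 5 tested, 4 were lower and 0 higher in CNV against untreated (median log2 fold change -1.31), beside 22.1% lower among all genes. In BetP-Gel@Ran against untreated 4 were lower and 0 higher (median -1.26), beside 18.1% lower among all genes. Between BetP-Gel@Ran and CNV, limma on FPKM called 0 genes, 2 had an unadjusted p under 0.05, and limma voom on recovered reads called 1 higher, Hspb7. Hspb6, Hspb7, Hspb2 and Hspb3 are expressed mainly in heart, skeletal and smooth muscle.

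Hspb7 had 4.60, 3.66 and 2.83 FPKM in BetP-Gel@Ran libraries, 1.66, 2.02 and 3.12 FPKM in CNV libraries and 26.4, 26.5 and 24.5 FPKM in untreated libraries. It fell in CNV against untreated (log2 fold change -3.06 ± 0.17 (SE), limma adjusted p = 8e-06) and in BetP-Gel@Ran against untreated (log2 fold change -2.53 ± 0.17 (SE), limma adjusted p = 2.54e-05). Hspb6, also called HSP20, had 25.8, 26.9 and 22.7 FPKM in BetP-Gel@Ran libraries, 23.3, 21.1 and 26.4 FPKM in CNV libraries and 81.9, 81.8 and 73.7 FPKM in untreated libraries. It fell in both comparisons with untreated (log2 fold change -1.71 ± 0.10 (SE), limma adjusted p = 8e-06 in CNV, and log2 fold change -1.62 ± 0.10 (SE), limma adjusted p = 1.86e-05 in BetP-Gel@Ran). For both genes the untreated libraries stood far above the rest, while CNV and BetP-Gel@Ran libraries overlapped. Hspb2 had 5.82, 5.65 and 4.73 FPKM in BetP-Gel@Ran libraries, 4.60, 5.06 and 5.92 FPKM in CNV libraries and 15.9, 12.6 and 14.6 FPKM in untreated libraries and fell likewise (log2 fold change -1.31 ± 0.11 (SE), limma adjusted p = 3.81e-05 in CNV, and log2 fold change -1.26 ± 0.11 (SE), limma adjusted p = 0.000101 in BetP-Gel@Ran). Its annotated span, start site included, overlaps the neighbouring Cryab by 1030 bases. Cryab is a lens and muscle crystallin gene with many more reads, so the Hspb2 reads are uncertain. Hspb3 had 1.75, 2.55 and 2.11 FPKM in BetP-Gel@Ran libraries, 1.87, 0.803 and 1.37 FPKM in CNV libraries and 5.05, 4.90 and 4.05 FPKM in untreated libraries and fell in CNV (log2 fold change -1.29 ± 0.17 (SE), limma adjusted p = 0.000324) and in BetP-Gel@Ran against untreated (log2 fold change -0.86 ± 0.17 (SE), limma adjusted p = 0.00479).

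Skeletal muscle markers moved with these 4 genes. All 12 tested markers were lower in CNV against untreated, and all 12 in BetP-Gel@Ran against untreated, while in BetP-Gel@Ran against CNV limma on FPKM and limma voom called 0, with 2 at an unadjusted p under 0.05. Acta1, skeletal actin, averaged 197 ± 23.5 FPKM in BetP-Gel@Ran, 171 ± 54.3 FPKM in CNV and 1558 ± 118 FPKM in untreated libraries (SD, n = 3 each). Of 7 tested smooth muscle and pericyte markers, 1 was lower and 6 not called in CNV against untreated (median log2 fold change -0.19). In BetP-Gel@Ran against untreated 3 were lower and 4 not called (median -0.35). Of all genes, 22.1% and 18.1% were lower in these comparisons. Hspb8, a small heat shock gene expressed more widely, had 33.98, 35.9 and 32.3 FPKM in BetP-Gel@Ran libraries, 32.5, 35.5 and 33.4 FPKM in CNV libraries and 38.8, 35.5 and 38.7 FPKM in untreated libraries and did not pass in CNV against untreated (log2 fold change -0.15 ± 0.07 (SE), limma adjusted p = 0.118). The part of muscle tissue in the small heat shock result was not tested.

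**Figure D4:**
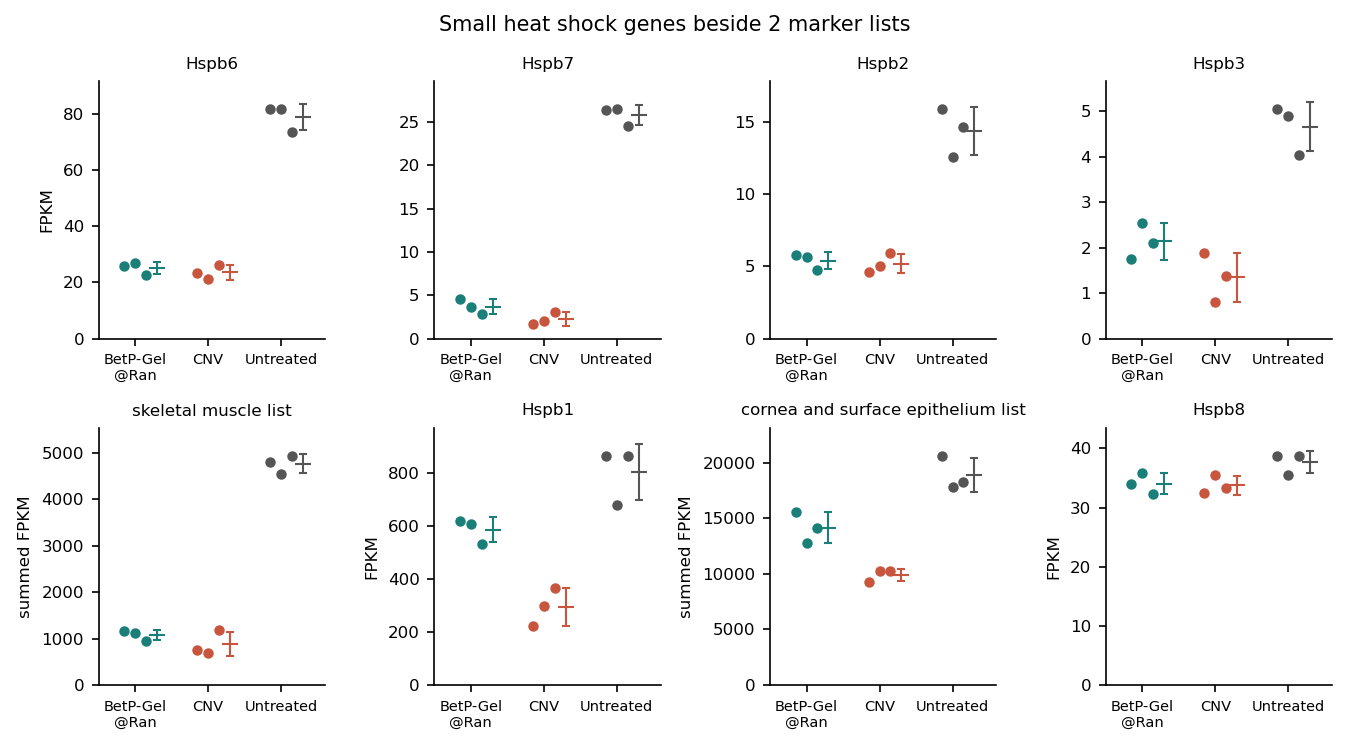
FPKM per library (y axes, from 0) of 6 small heat shock genes beside the summed FPKM of the skeletal muscle and the cornea and surface epithelium lists in BetP-Gel@Ran, CNV and untreated libraries; points are libraries and bars the mean ± SD of 3. Hspb6, Hspb7, Hspb2 and Hspb3 and the muscle list stand high in untreated libraries alone, whereas Hspb1 and the cornea list are also higher in BetP-Gel@Ran than in CNV.

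Of 13 constitutive cytosolic genes, 1 (7.69%) was higher and 4 (30.8%) lower in CNV against untreated (median log2 fold change -0.15), beside 22.5% and 22.1% of all genes. In BetP-Gel@Ran against untreated 2 (15.4%) were higher and 6 (46.2%) lower (median -0.16), beside 16.1% and 18.1% of all genes. Between BetP-Gel@Ran and CNV, limma on FPKM called 0, 2 had an unadjusted p under 0.05, and limma voom called 1 lower, Hspa8. Hsp90ab1, the constitutive HSP90, had 362, 351 and 343 FPKM in BetP-Gel@Ran libraries, 343, 363 and 309.9 FPKM in CNV libraries and 445, 426 and 421 FPKM in untreated libraries. Hsp90ab1 fell in CNV (log2 fold change -0.35 ± 0.08 (SE), limma adjusted p = 0.0076) and in BetP-Gel@Ran against untreated (log2 fold change -0.29 ± 0.08 (SE), limma adjusted p = 0.0238), and the second call was lost without BetP-Gel@Ran replicate 2 or 3 or untreated replicate 1 or 2, and with quantile normalization, with FPKM divided by its sum or with reads scaled to each library's total (limma adjusted p = 0.0559 to 0.221). Hspa8, the constitutive HSC70, had 158, 175 and 165 FPKM in BetP-Gel@Ran libraries, 220.1, 234 and 179.8 FPKM in CNV libraries and 206, 208 and 204 FPKM in untreated libraries. It did not pass in CNV against untreated (log2 fold change 0.03 ± 0.10 (SE), limma adjusted p = 0.845), while its fall in BetP-Gel@Ran against untreated (log2 fold change -0.31 ± 0.10 (SE), limma adjusted p = 0.0419) was lost without BetP-Gel@Ran replicate 1, 2 or 3, CNV replicate 1 or untreated replicate 1, 2 or 3, and with no filter, with quantile normalization, with FPKM divided by its sum or with reads scaled to each library's total (limma adjusted p = 0.0524 to 0.324).

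Dnajb5 had 1.89, 1.83 and 1.64 FPKM in BetP-Gel@Ran libraries, 1.65, 1.39 and 1.76 FPKM in CNV libraries and 3.29, 4.14 and 3.39 FPKM in untreated libraries and fell in CNV (log2 fold change -0.82 ± 0.10 (SE), limma adjusted p = 0.000197) and in BetP-Gel@Ran against untreated (log2 fold change -0.72 ± 0.10 (SE), limma adjusted p = 0.000857). Dnajc2, a ribosome-associated J-domain protein, had 5.88, 6.26 and 6.10 FPKM in BetP-Gel@Ran libraries, 6.62, 6.36 and 5.84 FPKM in CNV libraries and 4.78, 4.47 and 5.35 FPKM in untreated libraries and rose in CNV (log2 fold change 0.31 ± 0.08 (SE), limma adjusted p = 0.0101) and in BetP-Gel@Ran against untreated (log2 fold change 0.27 ± 0.08 (SE), limma adjusted p = 0.0243). The second Dnajc2 call was lost without BetP-Gel@Ran replicate 2 or 3 or untreated replicate 1 or 2 (limma adjusted p = 0.0691 to 0.0849). Hspa4, an HSP110-type exchange factor, had 29.2, 27.3 and 26.8 FPKM in BetP-Gel@Ran libraries, 26.4, 27.8 and 25.2 FPKM in CNV libraries and 23.1, 24.7 and 23.2 FPKM in untreated libraries. It rose in BetP-Gel@Ran against untreated (log2 fold change 0.22 ± 0.07 (SE), limma adjusted p = 0.0334), a call lost without BetP-Gel@Ran replicate 1, 2 or 3 or untreated replicate 1 or 3, and with no filter (limma adjusted p = 0.0609 to 0.1).

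Of 4 tested genes of vesicles and endosomes, 1 was higher and 3 lower in CNV against untreated, where 22.5% and 22.1% of all genes were called. Dnajc27, a J-domain protein with a small GTPase domain, had 5.48, 6.23 and 6.17 FPKM in BetP-Gel@Ran libraries, 4.59, 3.47 and 4.51 FPKM in CNV libraries and 10.3, 10.4 and 8.44 FPKM in untreated libraries. The 3 groups did not overlap. Dnajc27 fell in CNV (log2 fold change -1.04 ± 0.11 (SE), limma adjusted p = 0.000111) and in BetP-Gel@Ran against untreated (log2 fold change -0.62 ± 0.11 (SE), limma adjusted p = 0.00322), and was higher in BetP-Gel@Ran than in CNV (log2 fold change 0.43 ± 0.11 (SE), limma adjusted p = 0.0352). The last call was lost without BetP-Gel@Ran replicate 1, 2 or 3 or CNV replicate 1 or 2, and with no filter, with FPKM divided by its sum, with only the 2 groups in the fit, with the replicate number as a block or with reads scaled to each library's total (limma adjusted p = 0.0519 to 0.117). Rod markers had the same order of groups, and 10 of 12 were lower in CNV against untreated; their part was not tested. Dnajc13, an endosomal coat regulator, had 3.87, 3.66 and 4.46 FPKM in BetP-Gel@Ran libraries, 4.21, 4.18 and 4.002 FPKM in CNV libraries and 2.68, 2.68 and 2.68 FPKM in untreated libraries and rose in CNV (log2 fold change 0.48 ± 0.08 (SE), limma adjusted p = 0.000935) and in BetP-Gel@Ran against untreated (log2 fold change 0.44 ± 0.08 (SE), limma adjusted p = 0.00274). Dnajc6 and Dnajc5 encode auxilin, which uncoats clathrin vesicles, and the synaptic vesicle protein CSPα, and are named after their values were seen. Both fell in CNV against untreated, Dnajc6 by 0.84 ± 0.13 (SE; limma adjusted p = 0.000892) and Dnajc5 by 0.36 ± 0.07 (SE; limma adjusted p = 0.00265) on the log2 scale.

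Of 4 nuclear genes, 0 were higher and 2 lower in CNV against untreated, beside 22.5% and 22.1% of all genes. Dnajc8, a spliceosome-associated J-domain protein, had 47.5, 51.97 and 51.1 FPKM in BetP-Gel@Ran libraries, 39.7, 40.2 and 42.96 FPKM in CNV libraries and 57.99, 51.8 and 55.4 FPKM in untreated libraries. CNV libraries were below all others. Dnajc8 fell in CNV (log2 fold change -0.42 ± 0.07 (SE), limma adjusted p = 0.00169) and was higher in BetP-Gel@Ran than in CNV (log2 fold change 0.29 ± 0.07 (SE), limma adjusted p = 0.0348), a call lost without BetP-Gel@Ran replicate 2 or 3 or CNV replicate 1 or 2, and with no filter, with only the 2 groups in the fit or with the replicate number as a block (limma adjusted p = 0.0588 to 0.117). Among 8 tested genes of other or mixed roles, 1 (12.5%) was higher and 3 (37.5%) lower in CNV, where 22.5% and 22.1% of all genes were called. Dnajc14, a J-domain protein of the ER membrane linked to receptor transport, was counted here and not in the ER set. Dnajc14 rose (log2 fold change 0.24 ± 0.08 (SE), limma adjusted p = 0.0298), a call lost without CNV replicate 1 or 3 or untreated replicate 2 or 3, and with no filter or with only the 2 groups in the fit (limma adjusted p = 0.0527 to 0.102). The 9 untested genes, Hspbap1, Hspb9, Dnajb13, Hspa1l, Dnajc22, Dnajc5b, Dnajb7, Dnajb8 and Dnajc5g, had at most 0.968 FPKM in any library, and 5 of the 6 testis-enriched genes are among them.

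Genes that work with these chaperones were read from lists chosen for their role. Of the heat shock factors, 2 were tested, and limma on FPKM and limma voom called 0 in each comparison. At an unadjusted p under 0.05 there was 1 in CNV against untreated and 0 in the other two comparisons. Hsf1 averaged 2.59 ± 0.0980 FPKM in BetP-Gel@Ran, 2.52 ± 0.0439 FPKM in CNV and 2.72 ± 0.240 FPKM in untreated libraries (SD, n = 3 each). Of 23 cytosolic cochaperones, chaperonin subunits and other heat shock factor 1 targets, among them the crystallin Cryab, 2 (8.70%) were higher and 9 (39.1%) lower in CNV against untreated, beside 22.5% and 22.1% of all genes. The counts were 1 and 0 in BetP-Gel@Ran against CNV, beside 5.81% and 8.27% of all genes. They were 1 and 10 in BetP-Gel@Ran against untreated, beside 16.1% and 18.1% of all genes. Fkbp5, an HSP90 cochaperone induced by glucocorticoids, averaged 7.37 ± 2.18 FPKM in BetP-Gel@Ran, 3.80 ± 0.541 FPKM in CNV and 14.8 ± 0.966 FPKM in untreated libraries. Fkbp5 fell in CNV (log2 fold change -1.72 ± 0.18 (SE), limma adjusted p = 0.000102). It was higher in BetP-Gel@Ran than in CNV (log2 fold change 0.77 ± 0.18 (SE), limma adjusted p = 0.0258), a call lost without BetP-Gel@Ran replicate 1 or 2 or CNV replicate 1 or 2, and with no filter or with only the 2 groups in the fit (limma adjusted p = 0.0593 to 0.0993). Stub1, the ubiquitin ligase CHIP that acts on HSP70 clients, averaged 23.9 ± 0.669 FPKM in BetP-Gel@Ran, 26.3 ± 0.498 FPKM in CNV and 35.99 ± 0.602 FPKM in untreated libraries and fell in CNV (log2 fold change -0.44 ± 0.06 (SE), limma adjusted p = 0.000399). Ptges3, the HSP90 cochaperone p23, averaged 38.4 ± 2.27 FPKM in BetP-Gel@Ran, 44.8 ± 2.81 FPKM in CNV and 32.8 ± 1.86 FPKM in untreated libraries and rose in CNV (log2 fold change 0.44 ± 0.08 (SE), limma adjusted p = 0.00183).

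Of 10 ER stress sensors and factors, 4 (40%) were higher and 1 (10%) lower in CNV against untreated, beside 22.5% and 22.1% of all genes. The counts were 0 and 1 in BetP-Gel@Ran against CNV, and 4 and 3 in BetP-Gel@Ran against untreated. Of all genes, 5.81% were higher and 8.27% lower in BetP-Gel@Ran against CNV, and 16.1% and 18.1% in BetP-Gel@Ran against untreated. Edem1, which sends misfolded glycoproteins to degradation, averaged 7.45 ± 0.142 FPKM in BetP-Gel@Ran, 10.4 ± 0.977 FPKM in CNV and 5.17 ± 0.472 FPKM in untreated libraries (SD, n = 3 each). It rose in CNV (log2 fold change 0.89 ± 0.09 (SE), limma adjusted p = 6.42e-05) and was lower in BetP-Gel@Ran than in CNV (log2 fold change -0.43 ± 0.09 (SE), limma adjusted p = 0.016). The second call was lost without BetP-Gel@Ran replicate 2 or CNV replicate 1 or 2 (limma adjusted p = 0.0598 to 0.0648). Of 16 ER folding and quality control genes, 3 were higher and 3 lower in CNV, or 18.8% each, near the background, with 0 and 3 in BetP-Gel@Ran against CNV, and 3 and 3 in BetP-Gel@Ran against untreated. Hyou1, the ER exchange factor GRP170, averaged 3.56 ± 0.114 FPKM in BetP-Gel@Ran, 4.34 ± 0.377 FPKM in CNV and 2.50 ± 0.180 FPKM in untreated libraries and rose in CNV (log2 fold change 0.61 ± 0.08 (SE), limma adjusted p = 0.000308). Sdf2l1, which acts with BiP and ERdj3, averaged 8.94 ± 1.59 FPKM in BetP-Gel@Ran, 17.5 ± 2.32 FPKM in CNV and 8.60 ± 1.46 FPKM in untreated libraries. It rose in CNV (log2 fold change 0.95 ± 0.15 (SE), limma adjusted p = 0.00111) and was lower in BetP-Gel@Ran than in CNV (log2 fold change -0.90 ± 0.15 (SE), limma adjusted p = 0.0108), a call lost without CNV replicate 1 (limma adjusted p = 0.0533). Herpud1, an ER degradation factor and another known target of the unfolded protein response, averaged 28.97 ± 4.03 FPKM in BetP-Gel@Ran, 28.3 ± 1.90 FPKM in CNV and 43.7 ± 3.07 FPKM in untreated libraries and fell in CNV (log2 fold change -0.61 ± 0.11 (SE), limma adjusted p = 0.00159). Among other ER partner genes, Sil1 was called lower in CNV and in BetP-Gel@Ran against untreated. Its log2 fold change over the alternatives was -0.51 to -0.37 and -0.56 to -0.44. Ppp1r15a was lower in both comparisons, and Atf4 and Trib3 in BetP-Gel@Ran against untreated. Atf6, Ern1 and Serp1 were higher in both. All of these except Sil1 and Trib3 lost a call under at least 1 alternative.

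Of 12 mitochondrial folding and protease genes, 0 were higher and 5 (41.7%) lower in CNV against untreated, beside 22.5% and 22.1% of all genes. The counts were the same in BetP-Gel@Ran against untreated, beside 16.1% and 18.1% of all genes. In BetP-Gel@Ran against CNV limma on FPKM and limma voom called 0, with 1 at an unadjusted p under 0.05. Clpx, the ATPase of a matrix protease, averaged 18.4 ± 0.584 FPKM in BetP-Gel@Ran, 18.2 ± 1.47 FPKM in CNV and 25.6 ± 1.06 FPKM in untreated libraries (SD, n = 3 each). It fell in CNV (log2 fold change -0.47 ± 0.07 (SE), limma adjusted p = 0.00088). Trap1, the mitochondrial HSP90, averaged 17.7 ± 0.679 FPKM in BetP-Gel@Ran, 17.97 ± 0.732 FPKM in CNV and 23.98 ± 1.45 FPKM in untreated libraries and fell in CNV (log2 fold change -0.40 ± 0.07 (SE), limma adjusted p = 0.00163).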

How the data were processed

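The deposited table holds FPKM of 9 libraries, 3 a group, which the authors made with HTSeq 0.6.0 and the mm10 build, as the submitters' processing notes list them, with no aligner named in these sources. The kit, per the labels' protocols, does not mark the strand, and 39 of the 74 chaperone genes overlap another annotated gene, 18 of them a gene with a mean of at least 1 FPKM, so reads there are uncertain.

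FPKM times the deposited gene length gave whole reads for 100% of values within a tolerance of 0.05, and totals of 16990118 to 18753737 reads per library. The 14086 genes that reached 1 FPKM in 3 or more of the 9 libraries were fitted as log2(FPKM + 1) in limma 3.58.1 (R 4.3.3, statmod 1.5.0), trend and robust, with 1 mean per group over all 9 libraries and no covariate. P-values were two-sided and adjusted by Benjamini-Hochberg over all genes tested within each comparison, with a threshold of 0.05. No exact permutation test was run, since 3 against 3 libraries allow no p below 0.1. The fit was tested on simulated data.

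The chaperone genes, their compartments and the lists of partner and marker genes were chosen with earlier results of these data known. Named genes were the called members of the cytosolic inducible, ER and mitochondrial lists, with 10 core chaperones always. The 5 largest rises and falls among other called members of each comparison were added. So were up to 4 called partners of each list with the smallest p in each comparison. Only some of these partners are described in the text, while the counts of results that kept their call cover all of them. Other genes are named to complete a list or as markers and were chosen after their values were seen. Coordinates are those of the deposited table. Promoter windows come from RefSeq (GRCm38.p6), and UTRs from GENCODE M21 of the same build. Alternatives were another pseudocount, filters, scalings, fits limited to 2 groups, no trend or robust option, a replicate block, limma voom on recovered reads and each library left out; scaling to each library's total and summing Hspa1a with Hspa1b were added after seeing the data.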

Additional observations from a re-analysis of the deposited data

How the results depend on the processing

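Of 54 called member results that were named, 33 kept direction and call under all alternatives tried, 21 lost the call under at least 1, and 0 changed direction; of 45 partner results 30 kept theirs. In BetP-Gel@Ran against CNV the counts of higher and lower chaperone genes were 1 and 0 with no filter. There were 2 higher and 0 lower with only the 2 groups in the fit, 6 lower with a filter of 5 FPKM, 1 lower with FPKM divided by its sum, 8 lower with limma voom and 5 lower with reads scaled to each library's total. With each library left out in turn 1 to 5 were higher and 0 to 11 lower. In BetP-Gel@Ran against untreated, 10 genes were lower with FPKM divided by its sum and 12 with reads scaled to each library's total, and leaving out a library gave 3 to 7 higher and 11 to 23 lower. In CNV against untreated, leaving out a library gave 6 to 11 higher and 22 to 24 lower. Over all genes, the same repeats gave 70 to 1439 higher and 183 to 1650 lower in BetP-Gel@Ran against CNV. They gave 1435 to 2463 higher and 1739 to 2663 lower in BetP-Gel@Ran against untreated. In CNV against untreated they gave 2483 to 3105 higher and 2421 to 3076 lower. The cause was not tested.

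The replicate number as a block gave 1 higher and 1 lower chaperone gene in BetP-Gel@Ran against CNV, against 3 and 3, and moved the other counts by less than 1.5 times. Same-numbered libraries did not deviate together over all tested genes (correlations from -0.15 to 0.08). With 3 libraries a group, this cannot tell whether they shared a batch, and the labels do not say what the number means.

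Signs changed only among differences that did not pass. In CNV against untreated, the log2 fold change of Hsp90aa1 was 0.080 with quantile normalization, 0.060 with FPKM divided by its sum and 0.085 with reads scaled to each library's total, and with each library left out in turn it ranged from -0.18 to 0.26. Over the same repeats Hspa8 ranged from -0.050 to 0.14 and Hspa9 from -0.063 to 0.098. In BetP-Gel@Ran against CNV, Hsp90aa1 ranged from -0.044 to 0.17 and Hsp90ab1 from -0.0034 to 0.11 with each library left out. In BetP-Gel@Ran against untreated, quantile normalization, FPKM divided by its sum and reads scaled to each library's total gave 0.057, 0.041 and 0.018 for Hsp90b1 and 0.15, 0.077 and 0.054 for Hspe1. With each library left out, Hsp90b1 ranged from -0.15 to 0.051, Hspe1 from -0.11 to 0.082 and Hsp90aa1 from -0.13 to 0.31. The cause was not tested.

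Of the 74 genes, 64 had at least 1 FPKM in every library. Low depth bears most on the other 10 but also on tested genes with few reads, such as Dnajb3 with 30 to 90 a library. Fold changes of genes at a few FPKM varied with the setting. In CNV against untreated, Dnajb5 ranged from -1.17 to -0.74 and Hspb3 from -1.82 to -1.11 on the log2 scale over the alternatives. With 3 libraries a group, the number of libraries limits the precision.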
